A study of Danio rerio with 40 samples.

Results

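The genes described here make heparan sulfate or carry it, and they were measured in brains of zebrafish with a frameshift in naglu, a gene needed to break the chain down. They were chosen by gene symbol: the enzymes of the linkage region (xylt1, xylt2, b4galt7, b3galt6, b3gat3), the chain polymerases (ext1, ext2 and the extl genes), the modifying enzymes (ndst, glce, hs2st1, hs6st and hs3st genes), the extracellular sulfatases (sulf1, sulf2), and the core proteins (glypicans, syndecans, agrn and hspg2). Such a symbol was held by 47 of the 32057 genes counted, and the 46 with more than 0.5 CPM (counts scaled to a fixed library total) in at least 10 libraries were kept. The gene left out is a gpc6 paralog (ENSDARG00000104219), which passed 0.5 CPM in 6 libraries and had a mean of 0.353 CPM. No kept gene lay close to the limit. The nearest were hs3st3b1a, above 0.5 CPM in 37 libraries with a mean of 0.878, extl2 in 39 libraries with 1.13, and hs3st3l in 39 with 1.34. Each of the 46 passed the filter on low counts and was tested. The symbol table often drops the letter that tells zebrafish paralogs apart, so genes that share a symbol are given with their Ensembl ID.

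Each library was made from polyA RNA of the whole brain of a different fish at 6 months of age, 7 days after an intraperitoneal injection. The fish were siblings and all carried the frameshift allele A603fs of naglu, on 1 copy in the heterozygous controls (naglu A603fs/+) and on both copies in the homozygous mutants (naglu A603fs/A603fs). They had received either ferric citrate, 10 µg, or 0.85% saline, which gave 4 groups of 10: heterozygous and homozygous fish after saline, and heterozygous and homozygous fish after iron. No fish without the allele and no uninjected fish were analysed here, so each genotype value compares homozygous with heterozygous fish.

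Heparan sulfate is a long sugar chain of alternating glucosamine and uronic acid. It is built in the Golgi on serines of core proteins, starting from a short linker of xylose, galactose and glucuronic acid that chondroitin sulfate also uses. Polymerases extend the chain, and sulfotransferases and an epimerase then write a pattern of sulfate groups into it. Signalling proteins such as FGFs, Wnts and chemokines bind that pattern. The chain is taken apart in lysosomes sugar by sugar from its end, and naglu encodes the enzyme that removes alpha-linked N-acetylglucosamine. Its loss in humans causes mucopolysaccharidosis type IIIB, in which fragments of heparan sulfate are stored. The comparison of the genotypes asks whether the genes that make the stored material are transcribed at other levels when it cannot be degraded.

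Library totals ran from 11772789 to 38516546 counts. Females made up 2 of the 10 heterozygous saline, 5 of the heterozygous iron, 7 of the homozygous saline and 5 of the homozygous iron fish. Markers of brain were present in every library, with 18 neuron genes summing to 8411 to 13575 CPM, while 10 skeletal muscle genes summed to 2.91 to 33.2 CPM and 13 eye and pineal genes, of which 1 was at 0 throughout, to 3.54 to 240.0 CPM. The targeted gene naglu was counted at 2.58 to 6.11 CPM in heterozygous and 2.73 to 6.09 CPM in homozygous fish, with a log2 fold change of 0.13 (SE 0.13, edgeR adjusted p = 0.60), so the genotype labels cannot be checked from its level. A pair of libraries, labelled heterozygous saline 5 and heterozygous iron 5, went against that label. Of the 847 genes that differed between genotypes, 53.5% and 84.1% were nearer to the homozygous than to the heterozygous median in this pair, against 6.61% to 40.4% in the other 18 heterozygous and 66.4% to 91.1% in the 20 homozygous libraries. Heterozygous saline 5, at 53.5%, lay between these ranges. The melanosome gene pmelb stood at 3.56 and 6.40 CPM in them, against 0.477 to 1.94 CPM in those 18 and 2.66 to 17.9 CPM in the homozygous libraries. The 847 genes, pmelb among them, were called from these same 40 libraries, so they are not an independent check of the labels. Counts of called genes between genotypes, and the values of the named genes averaged over treatments, are also given without this pair. Leaving out libraries that oppose the calls favours larger genotype differences, and 1637 genes were then called. Calls gained without the pair are therefore no separate support. The library heterozygous saline 10 was also set beside the 38 libraries other than itself and heterozygous saline 3. It stood apart, with the lowest sums of endothelial (142 CPM), mural (173), microglial (514) and astroglial (2581) markers and the highest of neuronal ones (13575). Its eye and pineal sum was 141 CPM, above 37 of those 38 libraries, whose median was 5.65. It was below each of them for 7 of the 46 genes and above each for 3. Heterozygous saline 3 was below them for 8 genes and above for 9.

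As a set the 46 genes varied somewhat less from fish to fish than all genes tested. The SD of log2 CPM within groups, pooled over the 4 groups, ran from 0.080 for hs6st2 to 0.70 for gpc5b, with a median of 0.184 against 0.226 over all genes tested. It was under 0.2 for 27 of the 46, beside 8408 of the 19668 genes tested, and 18 of the 46 lay above the median of all genes. The members were not matched to the other genes by level. The polymerase gene ext2 (0.085), the ndst1 paralog ENSDARG00000103606 (0.10) and ndst4 (0.11) came next to hs6st2, a 6-O-sulfotransferase. The glypicans gpc5b and gpc5c (0.55) were the 2 members above 0.5. Lowly counted genes such as hs3st3l (0.50), hs3st3b1a (0.45) and extl2 (0.39) were also among the most variable, and their counts carry more sampling noise.

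Between the genotypes 1 of the 46 genes passed the test and 45 did not. The gene that passed, gpc1b, encodes a glypican-1 core protein, which carries heparan sulfate on the outer face of the cell membrane and in the adult brain is known chiefly from neurons. Its level was 59.3 to 71.1 CPM, median 65.7, in heterozygous saline fish and 59.9 to 80.0 CPM, median 70.6, in heterozygous iron fish. In homozygous fish it was 43.6 to 75.9 CPM, median 59.6, after saline and 48.5 to 65.1 CPM, median 58.0, after iron. The homozygous fish were the lower ones, and 18 of the 20 lay below the heterozygous median, but the groups overlapped. Averaged over the treatments gpc1b fell by 12.6% in homozygous fish, a log2 fold change of -0.19 (SE 0.054, 95% interval -0.30 to -0.086, n = 20 per genotype, edgeR adjusted p = 0.030). Without the pair of libraries that went against their labels it was -0.22 (SE 0.056, edgeR adjusted p = 0.012). That pair stood at 62.4 and 59.9 CPM, within the range of both genotypes.

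This 1 gene is 2.17% of the members, beside 4.31% of the 19668 genes tested that were called in the same comparison, so the count of heparan sulfate genes called was no larger than the background. By direction, 0 of 46 were higher beside 2.03% of all genes and 1 was lower beside 2.28%. At an unadjusted p under 0.05 there were 10 members, 21.7%, beside 19.7% of all genes. DESeq2 called gpc1b and gpc1, and limma voom called gpc1b. Here and below, calls by these 2 tools are given without the share of all genes they called. Without the pair of libraries that went against their labels 3 members passed, gpc1b, gpc1 and sulf2a, which is 6.52% beside 8.31% of the genes tested there.

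The call of gpc1b did not hold in every fit. It was kept in the fit with a term for fish number above 40, which uses all 40 libraries. Over 16 alternatives the log2 fold change of gpc1b ran from -0.30 to -0.15 and it was called in 11. Within the 20 fish numbered up to 40 in the labels it was -0.15 (SE 0.10, edgeR adjusted p = 0.59), within the 20 above 40 it was -0.15 (SE 0.055, edgeR adjusted p = 0.51), and with a spline of fish number -0.16 (SE 0.058, edgeR adjusted p = 0.11). In the same fish 13 of 15 oligodendrocyte and myelin markers fell, with a median log2 fold change of -0.50, and their sum was 12107 to 34015 CPM in heterozygous and 9349 to 21964 CPM in homozygous fish, with 0 of the markers at 0. Of 12 microglial markers 2 rose. Of 7 pigment cell markers 2 rose, of 17 mural and meningeal fibroblast markers 1 rose, and of 14 astroglial markers 1 fell. No endothelial, skeletal muscle or eye and pineal marker was called. Of 18 neuron markers 0 were called with edgeR and 2 had an unadjusted p under 0.05, with 16 of the 18 below 0 and a median of -0.068. Without the pair 13 oligodendrocyte markers and 1 neuron marker fell, where 8.31% of all genes were called. In that fit 3 microglial, 3 mural and 3 pigment cell markers rose, and of the astroglial markers 1 rose and 1 fell. The part of these cells in the level of gpc1b was not tested. In whole brains, fewer cells of a type and less RNA per cell cannot be told apart.

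**Figure D1:**
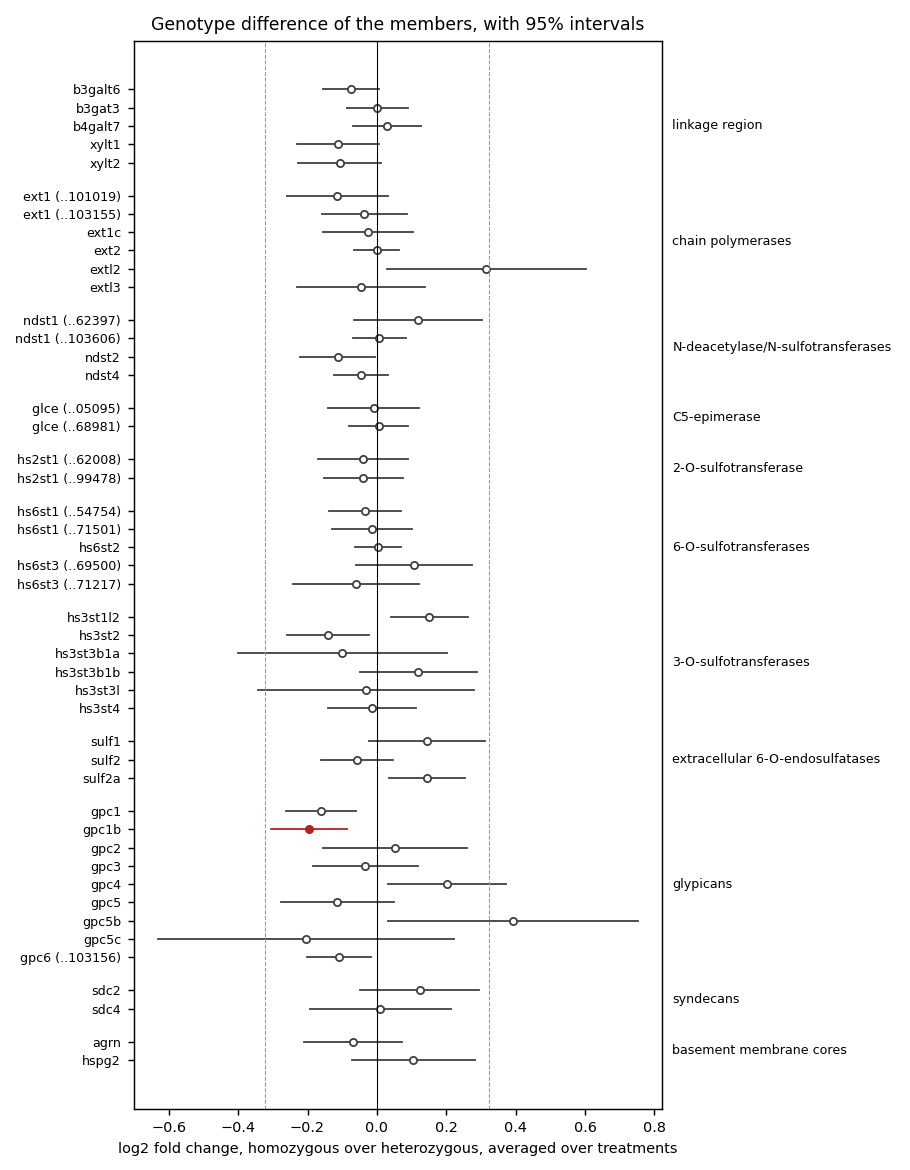
Genotype difference (log2 of homozygous over heterozygous), averaged over treatments, for each of the 46 genes by role, with 95% intervals (x axis) and dashed lines at 1.25-fold in each direction; the filled point passed the edgeR test. The intervals of 40 genes lie inside the dashed lines, and gpc1b is the 1 filled point, at -0.19.

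How small the differences were can be read from the intervals. For 40 of the 46 genes (87.0%) the 95% interval of the genotype difference lay inside 1.25-fold in either direction, which held for 62.1% of all genes tested. For 43 (93.5%) it lay inside 1.5-fold, beside 86.0% of all genes tested. The median log2 fold change of the 46 genes was -0.028, against -0.0015 over all genes tested, with 18 above and 28 below 0. The 3 genes whose interval reached past 1.5-fold were extl2, gpc5b and gpc5c, 3 of the variable genes named above. Within saline and within iron alone, 29 and 30 of the 46 intervals lay inside 1.25-fold, beside 45.4% and 50.2% of all genes. For the interaction of genotype and iron 20 did, beside 33.2%. In these counts too the members were not matched to the other genes by level.

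The second glypican-1 gene, gpc1 (ENSDARG00000019341), lay close to the threshold. Its level was 18.8 to 28.3 CPM, median 22.7, in heterozygous saline and 20.7 to 25.4 CPM, median 21.7, in heterozygous iron fish, against 17.2 to 22.0, median 18.4, in homozygous saline and 17.1 to 22.0, median 19.6, in homozygous iron fish. All 20 homozygous fish lay below the heterozygous median of 22.0 CPM, and 7 lay below the lowest heterozygous fish. Heterozygous saline 3 (28.3 CPM) and heterozygous saline 10 (25.8 CPM), the libraries set apart above, lay above all 38 others. Leaving out either of them did not bring a call of gpc1. A term for fish number above 40, fitted to all 40 libraries, did bring one with edgeR. Over all libraries the log2 fold change was -0.16 (SE 0.050, edgeR adjusted p = 0.056). It was -0.17 (SE 0.051, edgeR adjusted p = 0.030) without the pair of libraries that went against their labels. Within the bands of fish number it was -0.22 (SE 0.089, edgeR adjusted p = 0.36) up to 40 and -1.3e-05 (SE 0.066, edgeR adjusted p = 1.00) above 40.

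The other glypicans, which are held on the cell surface by a lipid anchor, did not pass and did not share a direction. Of all 9 glypican genes 3 had a log2 fold change above 0 and 6 below, with gpc1b and gpc1 among those below. The gpc4 counts, from a gene known in mammals as an astrocyte signal for synapse formation, were 22.5 to 58.0 CPM, median 48.3, in heterozygous and 42.5 to 69.5 CPM, median 55.4, in homozygous fish. Of the homozygous fish 17 lay above the heterozygous median, a count that takes no account of sex. Of the 19 females 15 lay above the male gpc4 median, and females were fewer among the heterozygous fish. With sex in the model the log2 fold change of gpc4 was 0.20 (SE 0.083, edgeR adjusted p = 0.16). It was 0.20 (SE 0.066, edgeR adjusted p = 0.076) without heterozygous saline 10, the library at 22.5 CPM, and 0.24 (SE 0.090, edgeR adjusted p = 0.090) without the pair. Over 16 alternatives it ran from 0.10, in the fish up to 40, to 0.29, in males. For gpc5b the levels were 1.70 to 37.95 CPM, median 19.5, and 10.5 to 39.2 CPM, median 28.5. Of the 20 homozygous fish 19 lay above the heterozygous median, again without account of sex. All 19 females lay above the male median of gpc5b. The log2 fold change of 0.39 (SE 0.18, edgeR adjusted p = 0.21) was 0.38 (SE 0.13, edgeR adjusted p = 0.076) without heterozygous saline 10, the library at 1.70 CPM, and 0.44 (SE 0.19, edgeR adjusted p = 0.15) without the pair. By treatment the log2 fold change of gpc5b was 0.67 after saline and 0.11 after iron (SE 0.26, edgeR adjusted p = 0.95). After iron 6 of 10 homozygous fish lay below the heterozygous iron median. The difference between the treatments, -0.56 (SE 0.37, edgeR adjusted p = 1.00), did not pass. The gpc6 paralog ENSDARG00000103156 had -0.11 (SE 0.046, edgeR adjusted p = 0.18), and -0.12 (edgeR adjusted p = 0.098) without the pair. The remaining glypicans gpc2, gpc3, gpc5 and gpc5c had values from -0.21 to 0.053.

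**Figure D2:**
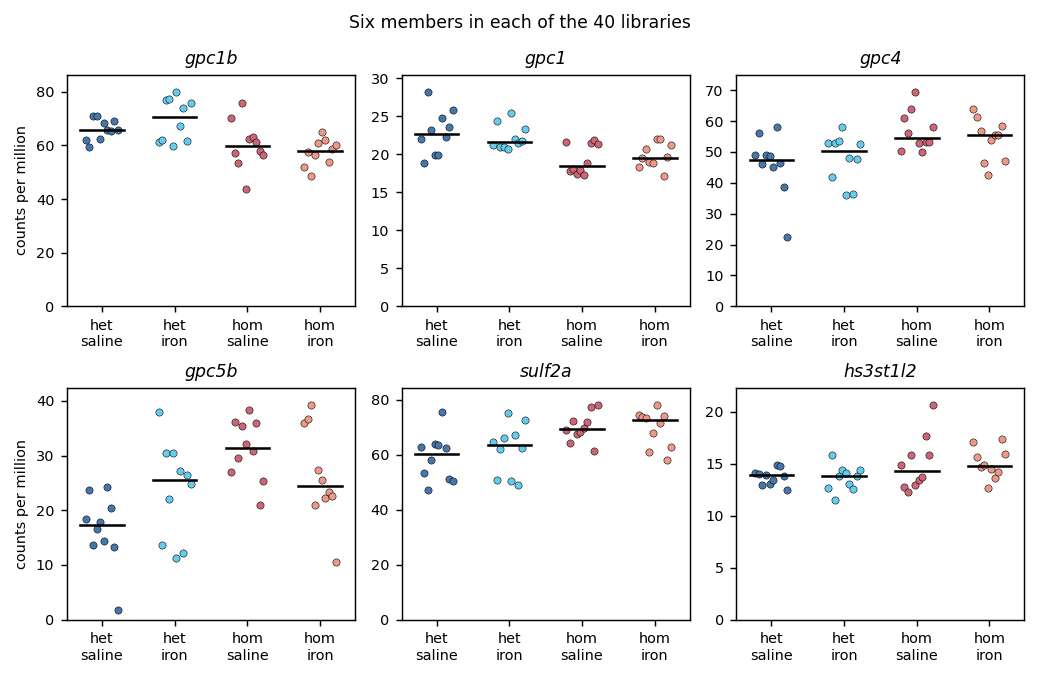
CPM of 6 members (y axes, from 0) in each of the 40 libraries by genotype and treatment; points are libraries and bars are group medians. The genotypes overlap in each panel; the homozygous medians are lower for gpc1b and gpc1 and higher for gpc4, sulf2a and hs3st1l2.

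The other core proteins did not pass. The syndecans span the membrane and can be shed with their chains attached. For sdc2 the log2 fold change was 0.12 (SE 0.085, edgeR adjusted p = 0.44) and for sdc4 0.010 (SE 0.10, edgeR adjusted p = 0.97). The basement membrane proteins agrn, known for assembling the neuromuscular junction, and hspg2, which encodes perlecan of the vessel wall, had -0.070 (SE 0.070, edgeR adjusted p = 0.62) and 0.10 (SE 0.087, edgeR adjusted p = 0.54).

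The enzymes that build the linker and the chain were close to even between the genotypes. The 5 linkage genes, whose products add xylose, 2 galactoses and glucuronic acid, had log2 fold changes from -0.11 for xylt1 to 0.029 for b4galt7, and their intervals reached from -0.23 to 0.13. The polymerase pair is made of ext1 and ext2 proteins, and ext2 was the most even member, at 48.8 to 64.0 CPM, median 58.5, in heterozygous and 53.7 to 66.1 CPM, median 58.3, in homozygous fish. These ranges overlapped almost fully, and the log2 fold change was -0.00087 (SE 0.032, 95% interval -0.066 to 0.065). Both ext1 paralogs, ext1c and extl3, which starts the chain, had values from -0.11 to -0.025. The related transferase gene extl2 was the exception in size, with 0.340 to 1.68 CPM, median 0.992, in heterozygous and 0.842 to 1.65 CPM, median 1.18, in homozygous fish. Its log2 fold change of 0.32 (SE 0.14, edgeR adjusted p = 0.21) did not pass, nor did 0.30 (edgeR adjusted p = 0.22) without the pair.

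Of the enzymes that modify the chain, none of the 19 passed. The 4 ndst genes, whose products replace the acetyl group of glucosamine with sulfate and so open the way for later steps, ran from -0.11 for ndst2 (SE 0.053, edgeR adjusted p = 0.22) to 0.12 for the ndst1 paralog ENSDARG00000062397. The 2 glce paralogs, for the epimerase that turns glucuronic into iduronic acid, had -0.0090 and 0.0046, and the 2 hs2st1 paralogs, which sulfate iduronic acid, had -0.039 and -0.041. The 5 genes for 6-O-sulfotransferases ran from -0.061 to 0.11. The rarest modification is 3-O-sulfation, and among its 6 genes were hs3st1l2 at 0.15 (SE 0.055, edgeR adjusted p = 0.11) and hs3st2, a gene of neurons in mammals, at -0.14 (SE 0.058, edgeR adjusted p = 0.17). Levels of hs3st1l2 were 11.5 to 15.8 CPM, median 13.8, in heterozygous and 12.3 to 20.6 CPM, median 14.8, in homozygous fish, with 7 homozygous fish above the highest heterozygous fish. Its direction turned in females alone, at -0.086 (SE 0.093, edgeR adjusted p = 0.86). For hs3st2 they were 7.12 to 10.7 CPM, median 8.33, and 5.78 to 8.77 CPM, median 7.89, with 5 homozygous fish below the lowest heterozygous fish. Without the pair ndst2 stood at -0.13, hs3st1l2 at 0.15 and hs3st2 at -0.17, with edgeR adjusted p of 0.15, 0.088 and 0.066. Over 16 alternatives ndst2 ran from -0.14 to -0.002, hs3st1l2 from -0.086 to 0.25 and hs3st2 from -0.19 to -0.091. They were called in 0, 1 and 0 of these.

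The sulfatases sulf1 and sulf2 cut 6-O-sulfates from finished chains outside the cell. The gene sulf2a stood at 47.0 to 75.5 CPM, median 62.5, in heterozygous and 57.9 to 78.0 CPM, median 70.5, in homozygous fish. Of the homozygous fish 17 lay above the heterozygous median, 3 of them above the highest heterozygous fish. These counts take no account of sex, and all 19 females lay above the male median of 61.1 CPM. Of each 10 fish, females made up 2 and 5 in the heterozygous saline and iron groups and 7 and 5 in the homozygous ones. With sex in the model the genotype log2 fold change of sulf2a was 0.14 (SE 0.054, edgeR adjusted p = 0.12). It was 0.18 (SE 0.056, edgeR adjusted p = 0.042) without the pair of libraries that went against their labels. Over 16 alternatives it ran from 0.02 to 0.22, and sulf2a was called in 2 of them. The other 2 sulfatase genes had 0.15 (sulf1, SE 0.082) and -0.058 (sulf2, SE 0.051). By symbol, sulf1 is placed on chromosome 24, as is naglu, and the hs6st1 paralogs have chromosomes 2 and 24 as candidates. The part of a shared chromosome in their values was not tested.

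Within the saline groups 0 of the 46 genes passed edgeR's test, beside 1.25% of all genes tested (0.569% higher and 0.681% lower). Without adjustment 4 members (8.70%) had a p under 0.05, beside 15.3% of all genes. Neither DESeq2 nor limma voom called any. Without the pair of libraries the count was also 0, beside 2.98% of all genes. The smallest p belonged to gpc5b, with 1.70 to 24.3 CPM, median 17.3, in heterozygous and 21.0 to 38.4 CPM, median 31.4, in homozygous saline fish. Of the 10 homozygous fish 9 lay above the highest heterozygous fish, and the log2 fold change was 0.67 (SE 0.26, edgeR adjusted p = 0.20). Without heterozygous saline 10 it was 0.57 (edgeR adjusted p = 0.13). The saline groups hold 2 and 7 females, and gpc5b was also higher in females, as given below. The next were gpc1 with -0.18 (SE 0.070), hs3st1l2 with 0.17 (SE 0.077) and sulf2a with 0.16 (SE 0.076), each with an edgeR adjusted p from 0.21 to 0.30. After them came gpc4 (0.23), the hs2st1 paralog ENSDARG00000062008 (-0.18), ndst4 (-0.11), b4galt7 (0.13), xylt1 (-0.15) and the ndst1 paralog ENSDARG00000062397 (0.24).

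Within the iron groups 0 of 46 passed edgeR's test, beside 0.137% of all genes (0.0661% higher and 0.0712% lower). Without adjustment 3 (6.52%) had a p under 0.05, beside 8.32% of all genes. The alternative tool DESeq2 called gpc1b, and limma voom called 0. The log2 fold change of gpc1b was -0.29 (SE 0.076, edgeR adjusted p = 0.11), and all 10 homozygous iron fish lay below the heterozygous iron median. Without the pair of libraries that went against their labels it was -0.32 (SE 0.078, edgeR adjusted p = 0.033), the 1 member then called, 2.17% beside 0.995% of all genes. For gpc1 it was -0.14 (SE 0.070) and for extl2 0.41 (SE 0.20). The following 7 by p were the hs6st3 paralog ENSDARG00000071217 (-0.25), hs3st2 (-0.16), hs3st1l2 (0.13), sulf2a (0.12), ndst2 (-0.12), gpc6 ENSDARG00000103156 (-0.099) and gpc4 (0.17), each with an edgeR adjusted p of 0.62 or more. The comparisons after saline, after iron and over both share libraries.

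Whether the genotype difference itself depended on iron was tested as an interaction. With edgeR 0 of 46 genes passed, beside 0% of all genes tested, and DESeq2 and limma voom called 0 of the 46. With an unadjusted p under 0.05 there were 3 members, 6.52%, beside 2.53% of all genes: the hs2st1 paralog ENSDARG00000062008 (0.28, SE 0.13), b4galt7 (-0.21, SE 0.097) and the hs6st3 paralog ENSDARG00000071217 (-0.38, SE 0.18), named after their values were seen. The fold change of gpc1b was -0.10 after saline and -0.29 after iron, and the difference of -0.19 (SE 0.11, edgeR adjusted p = 1.00) did not pass. Without the pair 0 members passed as well.

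**Figure D3:**
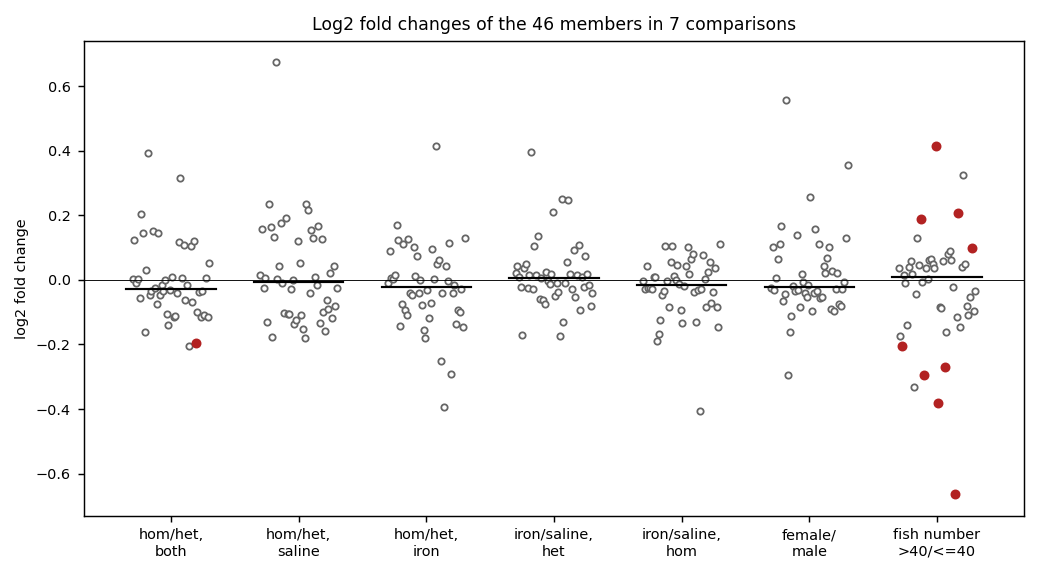
Log2 fold changes of the 46 members (y axis) in 7 comparisons (x axis), with open points for genes that did not pass and filled points for genes that passed the edgeR test; bars are medians over the members. There is 1 filled point for genotype averaged over treatments, 0 for the 5 genotype, iron and sex comparisons beside it, and 9 for fish number.

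Iron did not move these genes by an amount the test called. In heterozygous fish 0 of 46 passed with edgeR, beside 0% of all genes, and DESeq2 and limma voom called 0 of the 46. By edgeR 1 member had an unadjusted p under 0.05, beside 3.37% of all genes. That gene was sulf2, at 235 to 396 CPM, median 262, after saline and 200 to 289 CPM, median 248, after iron. The groups overlapped, and its log2 fold change was -0.17 (SE 0.069, edgeR adjusted p = 1.00). The highest value, 396, came from heterozygous saline 3. The next 9 by p were the hs6st3 paralog ENSDARG00000071217 (0.25), the ndst1 paralog ENSDARG00000062397 (0.25), the hs2st1 paralog ENSDARG00000062008 (-0.17), gpc5b (0.40), ext1c (0.14), gpc1b (0.11), ndst4 (-0.062), b3galt6 (-0.058) and gpc3 (0.10). The intervals of 35 of the 46 genes lay inside 1.25-fold, beside 55.4% of all genes tested.

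In homozygous fish the counts were the same. With edgeR 0 of 46 passed, beside 0% of all genes, and DESeq2 and limma voom called 0 of the 46. By edgeR 1 member had an unadjusted p under 0.05, beside 1.46% of all genes. It was b4galt7, the galactosyltransferase that adds the first galactose of the linker, at 10.98 to 15.6 CPM, median 12.6, after saline and 9.86 to 13.7 CPM, median 12.6, after iron. The medians were equal to this precision and the ranges overlapped. With sex and tank in the model the log2 fold change was -0.19 (SE 0.070, edgeR adjusted p = 1.00). The others by p were the ndst1 paralog ENSDARG00000103606 (-0.085), glce ENSDARG00000068981 (0.080), gpc5c (-0.41), gpc5 (-0.14), hs3st4 (0.11), ext1c (0.10), hs2st1 ENSDARG00000062008 (0.10), gpc1b (-0.084) and ndst4 (0.056). The intervals of 34 genes lay inside 1.25-fold, beside 53.7% of all genes tested.

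The same fish were compared by sex, with 19 females and 21 males. By edgeR 0 of 46 genes passed, beside 2.44% of all genes (1.71% higher in females and 0.722% lower). Without adjustment 8 (17.4%) had a p under 0.05, beside 18% of all genes. With DESeq2 there were 3 calls, gpc2, extl3 and gpc5b, and limma voom called gpc2, which are named here for that reason. The glypican gpc2, known in mammals from developing neurons, was at 1.62 to 2.83 CPM, median 2.36, in females and 1.03 to 2.54 CPM, median 1.79, in males. Its log2 fold change of females over males was 0.35 (SE 0.10, edgeR adjusted p = 0.050, above the threshold before rounding). For extl3 it was -0.29 (SE 0.092, edgeR adjusted p = 0.078). Levels of gpc5b were 20.5 to 39.2 CPM, median 30.4, in females and 1.70 to 36.7 CPM, median 18.5, in males, and every female lay above the male median. Its log2 fold change was 0.56 (SE 0.18, edgeR adjusted p = 0.084), and 0.52 (SE 0.13, edgeR adjusted p = 0.018) without heterozygous saline 10, which is a male. Of 17 mural and meningeal fibroblast markers 2 were higher in females, with sums of 383 to 531 CPM against 173 to 494 CPM in males, and of 14 astroglial markers 2 were higher, with sums of 5802 to 8699 and 2581 to 8502 CPM. Of 15 oligodendrocyte and myelin markers 1, cnp, was higher in females, while the log2 fold changes of 14 lay below 0. No endothelial marker was called, though all 15 lay above 0. The sums take no account of genotype. The part of these cell types in the values by sex was not tested.

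A number that the labels give each fish as its title, from 2 to 95, went with more of these genes than genotype, iron or sex did. What it stands for is not stated there, and the split at 40, which puts 20 fish on each side, was taken with earlier results of these data known. With a term for fish number in the model, 9 of 46 genes differed between numbers above 40 and up to 40, 19.6% beside 21.4% of all genes tested, which is near the background. Above 40, 4 genes were higher (8.70% beside 10.8%) and 5 lower (10.9% beside 10.6%). Above 40 there are 6 heterozygous and 4 homozygous fish after saline, and 4 heterozygous and 6 homozygous fish after iron.

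Of the core proteins, the syndecan gene sdc4 had the smallest p and fell, with 12.9 to 25.7 CPM, median 16.8, up to 40 and 10.9 to 17.1 CPM, median 14.1, above 40. All but 1 of the 20 fish above 40 lay below the median of the others. Its log2 fold change was -0.38 (SE 0.071, edgeR adjusted p = 0.00025). The glypican gpc5c was at 0.888 to 4.41 CPM, median 1.78, and 0.539 to 1.74 CPM, median 1.25, with all 20 fish above 40 below the other median, and its log2 fold change was -0.66 (SE 0.16, edgeR adjusted p = 0.0035). In the opposite direction agrn stood at 191 to 327 CPM, median 231, and 233 to 325 CPM, median 272. Here all 20 fish above 40 lay above the other median, and the log2 fold change was 0.21 (SE 0.057, edgeR adjusted p = 0.0089).

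Of the enzymes, sulf1 was at 8.45 to 15.99 CPM, median 12.3, up to 40 and at 6.46 to 12.1 CPM, median 9.42, above 40. All 20 fish above 40 lay below the other median, 3 of them below the lowest other fish, and the log2 fold change was -0.30 (SE 0.060, edgeR adjusted p = 0.00073). The glce paralog ENSDARG00000005095 had medians of 40.5 and 36.2 CPM, within 34.1 to 51.4 and 31.9 to 44.1, and a log2 fold change of -0.20 (SE 0.051, edgeR adjusted p = 0.0048). The polymerase gene ext1c had medians of 22.8 and 25.5 CPM, within 13.2 to 26.0 and 21.1 to 29.2, and 0.19 (SE 0.054, edgeR adjusted p = 0.012). The 3-O-sulfotransferase gene hs3st3l had medians of 1.14 and 1.60 CPM, within 0.237 to 2.04 and 1.08 to 1.89, and 0.41 (SE 0.13, edgeR adjusted p = 0.025). For each of these 3 genes 16 or 17 of the 20 fish above 40 lay on the same side of the other median, and the ranges overlapped.

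The ndst1 paralogs moved in opposite directions with fish number. The paralog ENSDARG00000062397 fell, with 16.8 to 29.5 CPM, median 23.4, up to 40 and 12.1 to 25.9 CPM, median 19.2, above 40. Its log2 fold change was -0.27 (SE 0.074, edgeR adjusted p = 0.0089). The paralog ENSDARG00000103606 rose slightly, with 73.8 to 96.0 CPM, median 86.0, and 81.2 to 96.9 CPM, median 88.7. Its log2 fold change was 0.099 (SE 0.032, edgeR adjusted p = 0.025), and this call was lost without heterozygous saline 10, without heterozygous saline 3, and without the pair of libraries that went against their labels. In each case 17 of the 20 fish above 40 lay on the side of the change. Since the counting may share reads between near-identical paralogs, levels of single paralogs are uncertain.

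**Figure D4:**
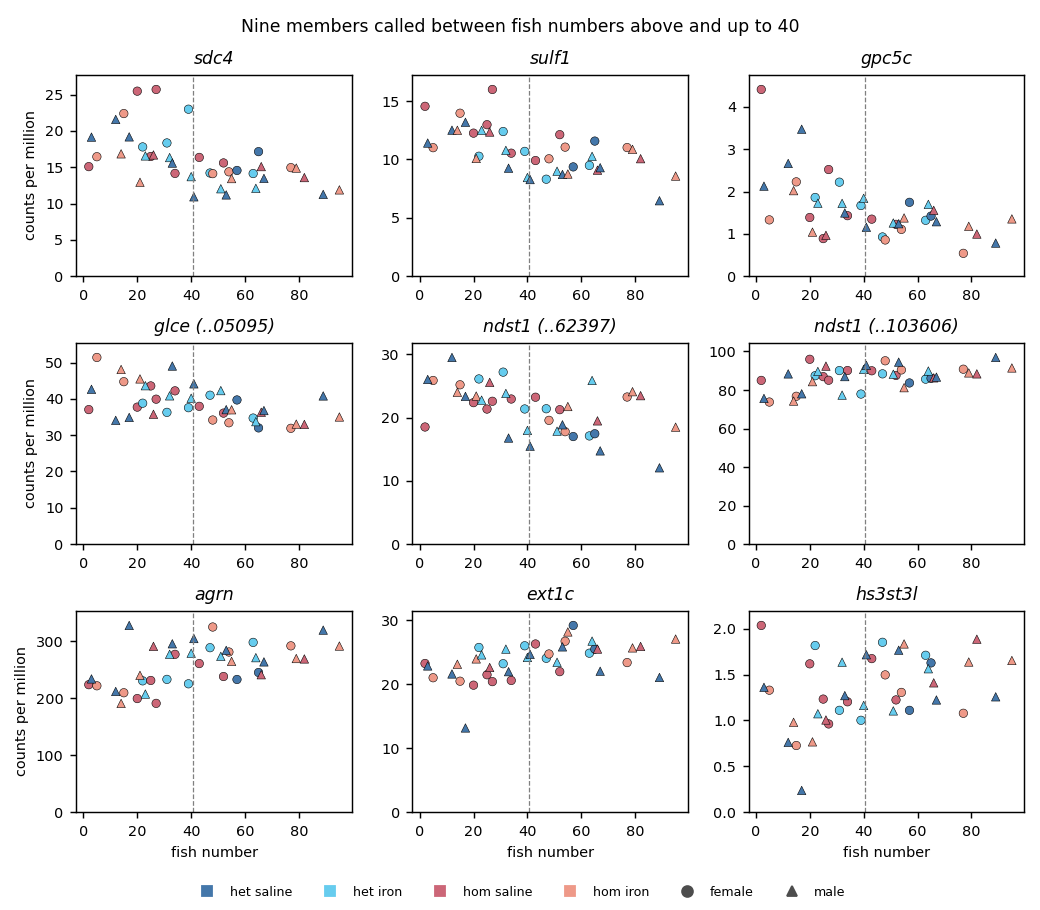
CPM of the 9 members that passed the test for fish number (y axes, from 0) against the fish number in the labels (x axes), with colours for the 4 groups, circles for females and triangles for males; the dashed line marks the split at 40. Values of sdc4, sulf1 and gpc5c are lower and values of agrn higher to the right of the line, and the 2 ndst1 paralogs differ in direction.

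Markers of several cell types were also called for fish number, to be read against the 10.6% of all genes that fell and the 10.8% that rose. Of 14 astroglial and radial glial markers 7 fell, with their sum at 4590 to 8699 CPM up to 40 and 2581 to 7877 CPM above 40. Of 17 mural and meningeal fibroblast markers 5 fell (363 to 531 and 173 to 475 CPM), of 12 microglial markers 3 fell (1107 to 2624 and 514 to 1764 CPM), and of 15 endothelial markers 5 fell and 1 rose (166 to 319 and 142 to 320 CPM). The endothelial sum had a median of 205 CPM up to 40 and 216 CPM above 40, so its median did not fall with the 5 markers. Of 18 neuronal markers 5 rose (8411 to 11171 and 9473 to 13575 CPM). None of these markers was at 0 in every library. Of 7 pigment cell markers 2 also fell, and of 15 oligodendrocyte and myelin markers 1 fell. The part of these cell types in the 9 gene differences was not tested.

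Other genes of heparan sulfate and of related chains were counted from lists matched by symbol, also without the paralog letter. Between genotypes 4.31% of all genes were called, and the lists with 1 called gene had shares of 3.70% (supply), 5.26% (chondroitin sulfate synthesis), 4.35% (core and matrix) and 1.49% (growth factors and receptors). Of 13 breakdown genes 3 rose (23.1%) and 0 fell, with a median log2 fold change of 0.13 against -0.028 for the 46 genes of synthesis and -0.0015 for all genes. The list includes the targeted gene naglu, and this median is the value of naglu itself, which did not pass (SE 0.13, edgeR adjusted p = 0.60). The glucosamine-6-sulfatase paralogs gnsb and gns, whose products remove a sulfate group from glucosamine at the end of the chain, rose by 0.90 (SE 0.14, edgeR adjusted p = 0.00014) and 0.11 (SE 0.028, edgeR adjusted p = 0.025), and the heparanase gene hpse, whose product cuts the chain internally, by 0.46 (SE 0.094, edgeR adjusted p = 0.0026). Without the pair 4 breakdown genes rose, and gnsb, gns and hpse had 1.08, 0.13 and 0.49. The difference between the lists was not tested.

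Of 27 genes that supply sugars and sulfate, uap1l1 rose by 0.48 (SE 0.072, edgeR adjusted p = 6.6e-05), and the list median was 0.060. It is related to the enzyme that makes UDP-N-acetylglucosamine. Of 19 genes of chondroitin sulfate synthesis, chst12, a 4-O-sulfotransferase, fell by 0.19 (SE 0.054, edgeR adjusted p = 0.032), with a list median of 0.0023. Of 23 chondroitin sulfate core and matrix genes dcn, which encodes decorin, rose by 0.30 (SE 0.083, edgeR adjusted p = 0.032), and the list median was -0.0046. It is also on the list of mural and fibroblast markers. Of 19 genes for proteins that carry heparan sulfate part of the time 0 passed, and 0 also had an unadjusted p under 0.05, with a median of -0.038. Of 67 heparin-binding growth factors and receptors nog2, a BMP antagonist of the noggin family, rose by 0.31 (SE 0.090, edgeR adjusted p = 0.041), with a median of 0.033. After saline alone uap1l1 rose by 0.54 (SE 0.10, edgeR adjusted p = 0.0068) and gnsb by 1.13 (SE 0.21, edgeR adjusted p = 0.0052), and no other gene of these 6 lists passed. Without the pair uap1l1, chst12, dcn and nog2 stood at 0.54, -0.20, 0.33 and 0.34 averaged over treatments and each passed again with edgeR. The counts called there were 4 supply, 2 chondroitin sulfate synthesis, 1 core and matrix, 0 part-time and 3 growth factor genes, beside 8.31% of all genes. In both iron comparisons 0 genes of these lists passed with edgeR. By sex dcn, hapln1a and pdgfbb were higher in females, by 0.33 (SE 0.084, edgeR adjusted p = 0.023), 0.44 (SE 0.12, edgeR adjusted p = 0.039) and 0.27 (SE 0.068, edgeR adjusted p = 0.023). That is 2 of 23 core and matrix genes (8.7%) and 1 of 67 growth factor and receptor genes (1.49%), beside 2.44% of all genes. The remaining lists had no call by sex.

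**Figure D5:**
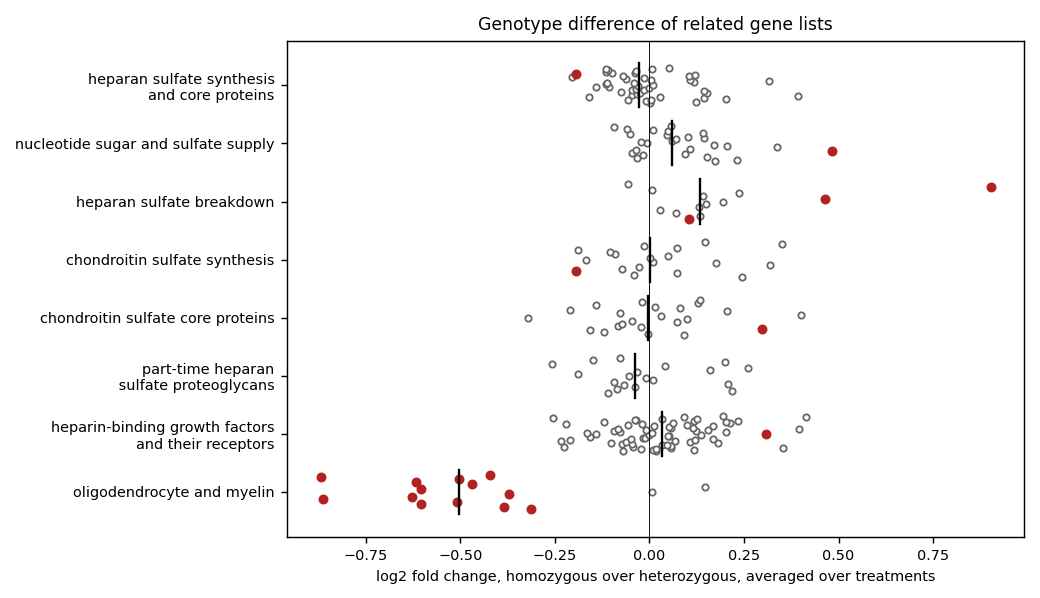
Genotype difference (log2 of homozygous over heterozygous), averaged over treatments (x axis), for the genes of each list (y axis); points are genes, filled where they passed the edgeR test, and bars are list medians. The 46 genes of heparan sulfate synthesis have 1 filled point, the breakdown genes 3 to the right, and the oligodendrocyte and myelin markers 13 to the left.

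For fish number, where 21.4% of all genes were called, the shares called were 14.8% of the supply, 15.8% of the chondroitin sulfate synthesis and 25.4% of the growth factor and receptor genes. They were 38.5% of the breakdown, 39.1% of the core and matrix and 36.8% of the part-time genes, and these differences from the background were not tested. Of the breakdown genes 5 of 13 fell, among them naglu itself, at 3.30 to 6.11 CPM, median 4.65, up to 40 and 2.58 to 3.71 CPM, median 3.32, above 40. It fell by 0.59 on the log2 scale (SE 0.070, edgeR adjusted p = 2.7e-07). Others that fell were arsg by 0.58, idua by 0.19 and ids by 0.20. Of the supply genes 2 fell, papss2, which makes the sulfate donor, by 0.63 and pgm3 by 0.18, and uap1 and tmem165 rose by 0.17 and 0.083. Of the chondroitin sulfate synthesis genes 3 fell, dse by 0.48, csgalnact1b by 0.82 and chsy3 by 0.17. Among 23 core and matrix genes 7 fell and 2 rose. With the smallest p were cspg5b, which rose by 0.66, fmod, a keratan sulfate proteoglycan that fell by 1.14, bgn, which fell by 0.49, and hapln2, a hyaluronan link protein that fell by 0.31. Of the part-time carriers 5 rose and 2 fell, with the neurexins nrxn2b, nrxn3 and nrxn1a higher by 0.21, 0.19 and 0.21 and the collagen gene col18a1a lower by 0.56. Of the growth factors and receptors 13 fell and 4 rose, with fgfr4 and pdgfra falling by 0.49 and 0.62 and 2 ptprf paralogs rising by 0.40 and 0.23.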

How the data were processed

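RNA sequencing measured whole brains of 40 fish. The authors deposited raw counts per Ensembl gene. The tools named in the submitters' processing notes are STAR, featureCounts, fastp and UMI-tools, with genome build GRCz11. No role, version, strand setting or annotation is stated with them, so values of paralogs and overlapping genes are uncertain. Symbols were matched for 28988 of 32057 IDs. The main test was edgeR 4.0.16 (R 4.3.3) quasi-likelihood with TMM factors on the 19668 genes left by filterByExpr, with terms for group, sex and home tank (5 tanks). Fish number above 40 was added as a term for its own comparison. P-values were Benjamini-Hochberg adjusted over these genes (threshold 0.05) and measure the spread between fish. Log2 fold changes carry SEs. CPM values are over TMM-scaled library sizes, except in the 0.5 CPM rule for members, which used raw totals. Alternatives used DESeq2 1.42.0, limma 3.58.1 and subsets of libraries; the fit was tested on simulated data. Named genes are all called members, the 10 members with the smallest p in each genotype and iron comparison, and up to 4 called genes by p per other list and comparison; other names were chosen after their values were seen. The members and lists were chosen with earlier results of these data known. Each fish is its own library. None of the 780 library pairs agreed within sampling noise (chi-square per degree of freedom at least 6.95). No sequences are printed, since no genome or sequence table was used here.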

Additional observations from a re-analysis of the deposited data

Results flagged for a closer look

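In each group of 10 the highest and lowest library were compared with the nearest other library by Dixon's ratio. Of 184 gene and group combinations 18 passed the 95% limit, which about 1 in 20 would pass if values were normal and independent. The combinations share the same 40 libraries, and the share over all genes tested was not computed. The count is therefore not a result about the members. These 18 fall on 14 members.

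Heterozygous saline 3 accounted for 7 of them. It was lowest for b3gat3 (33.1 CPM, next 44.3), ext1c (13.2, next 21.1), hs3st3l (0.237, next 0.761), the hs6st3 paralog ENSDARG00000071217 (3.39, next 7.92) and the hs2st1 paralog ENSDARG00000099478 (7.58, next 10.3), and highest for sulf2 (396, next 283) and the ext1 paralog ENSDARG00000103155 (16.3, next 13.6). Heterozygous saline 10 was lowest for gpc4 (22.5 CPM, next 38.7), gpc5b (1.70, next 13.2) and hspg2 (6.70, next 10.7).

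The others were spread over 7 libraries. Homozygous iron 10 was lowest for gpc5b (10.5 CPM) and b3galt6 (35.5). Homozygous iron 1 was lowest for the hs6st3 paralog ENSDARG00000071217 (5.74). Heterozygous iron 2 was lowest for sulf2 (200, more exactly 199.8), heterozygous iron 5 for xylt2 (6.07) and heterozygous saline 1 for b4galt7 (9.36). The hs6st1 paralog ENSDARG00000054754 was highest in heterozygous saline 4 (24.4) and heterozygous iron 10 (24.2).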

How the results depend on the processing

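Counts of called members were recomputed under 16 alternatives, 3 of which (without heterozygous saline 3, fish numbers up to 40 only, fish numbers above 40 only) were chosen after seeing the data. For genotype averaged over treatments 1 member was called, against 2 with DESeq2, 4 without the home tank term, 2 with a term for fish number above 40, 3 without heterozygous saline 5 and heterozygous iron 5, and 0 with a spline of fish number, in males only, in females only, and in either band of fish number. For genotype after iron the count of 0 became 1 with DESeq2, without the home tank term, and without heterozygous saline 5 and heterozygous iron 5. For sex the count of 0 became 3 with DESeq2 and 1 with upper quartile factors, CPM above 1 in at least 20 libraries, limma voom, no home tank term, the term for fish number above 40, without heterozygous saline 10, without heterozygous saline 3, and in fish above 40. For fish number the count of 9 became 1 in males and 3 in females, and 8 without heterozygous saline 5 and heterozygous iron 5 and 8 without heterozygous saline 10. Without heterozygous saline 3 it stayed at 9, but 8 of them were shared and sdc2 was newly called. The females also called sdc2. Genotype after saline, iron in either genotype and the interaction stayed at 0 in the alternatives run. Shares over all genes are given above for the genotype fits without heterozygous saline 5 and heterozygous iron 5. For the other alternatives they are not given, so a changed count cannot be set against its background or read as a result about the members. The causes were not tested, except that subsets hold fewer fish.

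Of 908 recomputed fold changes of named members 852 kept direction and side of the threshold, 10 passed it newly, 23 no longer passed, and 23 changed sign. All of those that changed sign were in subsets of fish. In females the log2 values were -0.086 (hs3st1l2, genotype), -0.20 (hs3st1l2), -0.034 (sulf2a) and 0.017 (xylt1) for genotype after saline, -0.19 (ext1c), -0.059 (gpc1b) and -0.19 (gpc3) for iron in heterozygotes, and -0.11 (hs2st1 ENSDARG00000062008) for iron in homozygotes. In males they were -0.065 (glce ENSDARG00000068981) and 0.039 (gpc5c) for iron in homozygotes. Up to 40 they were -0.022 (gpc4) and -0.20 (ndst1 ENSDARG00000062397) for genotype after saline, -0.074 (the same ndst1) for iron in heterozygotes, and 0.024 (b4galt7) and -0.022 (ext1c) for iron in homozygotes. Above 40 they were 0.012 (ndst4) and 0.056 (xylt1) for genotype after saline, 0.016 (gpc1) after iron, -0.013 (ext1c) and -0.001 (gpc3) for iron in heterozygotes, and 0.005 (ndst1 ENSDARG00000103606), 0.044 (gpc1b) and -0.060 (ndst4) for iron in homozygotes.

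Depth limits the low genes: extl2, hs3st3b1a, hs3st3l and gpc5c lie near 1 CPM, and their intervals are wide. No paired analysis was possible because each library is a different fish and replicate numbers only name libraries.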
